A study of Homo sapiens with 8 samples.

Results

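The collagen, laminin and integrin genes of A549 cells were compared between untreated cultures and cultures exposed to dexamethasone. A549 is an established epithelial line from a human lung adenocarcinoma, and dexamethasone is a synthetic steroid hormone that acts through the glucocorticoid receptor. Members were taken by gene symbol from all 19158 genes in the deposited values. There were 82 of them, namely 43 collagen alpha chains, 12 laminin chains and 27 genes with an integrin symbol. One of the 27, ITGBL1, encodes an integrin-beta-like protein and no integrin subunit, so 26 integrin subunits were measured. The untreated group had 4 wells of wild-type cells with no agent, and the treated group had 4 wells of the same cells given 1 µM dexamethasone for 48 h. Replicates were numbered 1, 3, 4 and 5 in both groups, all 8 libraries carried the batch label 1, and values listed below follow that replicate order. All wells came from 1 cell line, so p-values measure the spread between wells. In RNA from whole wells, fewer cells expressing a gene and less of its RNA per cell cannot be told apart.

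Collagens are triple-helical proteins of the extracellular matrix. Type IV collagens and laminins are the main building blocks of basement membranes, the sheets on which epithelial cells such as those of the lung alveolus rest. Each laminin is a trimer of an alpha, a beta and a gamma chain. Integrins are alpha-beta heterodimers in the plasma membrane that bind collagens, laminins and other matrix proteins outside the cell and connect them to the cytoskeleton inside it.

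The deposited values are named as counts, but they are not whole numbers and carry no named unit. They were read, from their properties, as FPKM, the fragments assigned to a gene scaled by transcript length and library size. On that reading, levels of different genes can be set side by side. The spacing of low values gave an estimate of 24630000 to 28890000 fragments per library, at which 1 fragment on a transcript of 5 kb is worth 0.00692 to 0.00812 FPKM. The estimate is below the number of read pairs that the labels state, and whole fragments were not recovered, so the worth of 1 fragment is approximate. The treatment labels were checked with FKBP5, a glucocorticoid-induced gene, which was at 5.86, 6.76, 7.3 and 3.28 FPKM in untreated and 125, 166, 165 and 87.3 FPKM in dexamethasone libraries. TSC22D3 and PER1, other glucocorticoid-induced genes, were higher by 3.85 and 1.92 on the log2(FPKM + 1) scale (limma adjusted p = 4.39e-07 and 3.73e-05). The keratins KRT8 and KRT18, markers of simple epithelium, were between 805 and 2195 FPKM in every library, while EPCAM, another epithelial marker, was at or below 0.765 FPKM. The other epithelial markers differed between groups without overlap: KRT19 was 131 to 200.4 FPKM untreated and 43.97 to 64.2 FPKM treated, and CDH1 was 4.9 to 8.52 FPKM untreated and 16.7 to 19.7 FPKM treated. Their part in the changes below was not tested. Of 7 fibroblast markers, FAP and POSTN were listed at 0 everywhere, and their summed level was 1.70 to 2.11 FPKM in untreated and 0.690 to 0.812 FPKM in dexamethasone libraries (THY1 1.57 to 1.93 and 0.359 to 0.411 FPKM). DCN, another of them, was listed at 0 in the untreated libraries and was 0.178 to 0.355 FPKM in the treated ones. The leukocyte markers PTPRC and CD3E were listed at 0 in all 8 libraries. CD14, another of them, was 2.01 to 3.14 FPKM untreated and 1.19 to 1.56 FPKM treated. With ITGB2 the leukocyte list summed to 2.89 to 4.27 FPKM untreated and 1.5 to 2.2 FPKM treated. The summed level of 4 endothelial markers was at most 0.182 FPKM.

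Of the 82 genes, 43 had at least 0.5 FPKM in at least 4 libraries and were tested (17 collagens, 8 laminins and 18 integrin subunits). A gene was called where limma on log2(FPKM + 1) gave a Benjamini-Hochberg adjusted p under 0.05 over all 12161 genes tested. Fold changes in log2 are on that scale, which understates changes of low genes. Called members numbered 30 of 43, 12 higher and 18 lower after dexamethasone, while among all tested genes 27.2% were called, 11.9% higher and 15.3% lower. The 4 values of each group did not overlap in 30 of 43 members, against 31.5% of all tested genes. These counts hold only for the members that passed the filter, and 5 of the 43 passed it through 1 group alone (COL1A1, LAMC3 and ITGAX through untreated, ITGA1 and ITGA10 through dexamethasone), so a difference was built into their selection.

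By family, collagens had 4 higher and 10 lower of 17 tested, with a median log2 fold change of -0.44. The number lower was 6 without untreated replicate 1, 5 without dexamethasone replicate 1 or 4, and 6 with each library's trend on GC content removed, when the median was -0.16. Over all tested genes, 3310 were called in the main comparison. Without those libraries the number was 2573, 2382 and 2362, and with the GC trend removed it was 4447. Laminins had 3 higher and 2 lower of 8, with a median of 0.04. Integrin subunits had 5 higher and 6 lower of 18, and their median was 0.00332. The median of all tested genes was -0.00381. Each family thus held members called in both directions. Summed over all its chains, collagen FPKM was 219.9, 224, 187 and 165 in untreated and 166, 170.3, 151 and 153 in dexamethasone libraries. Summed integrin FPKM was 625, 731, 701 and 469 in untreated and 923, 1003, 926 and 917 in dexamethasone libraries, with no overlap between groups.

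**Figure D1:**
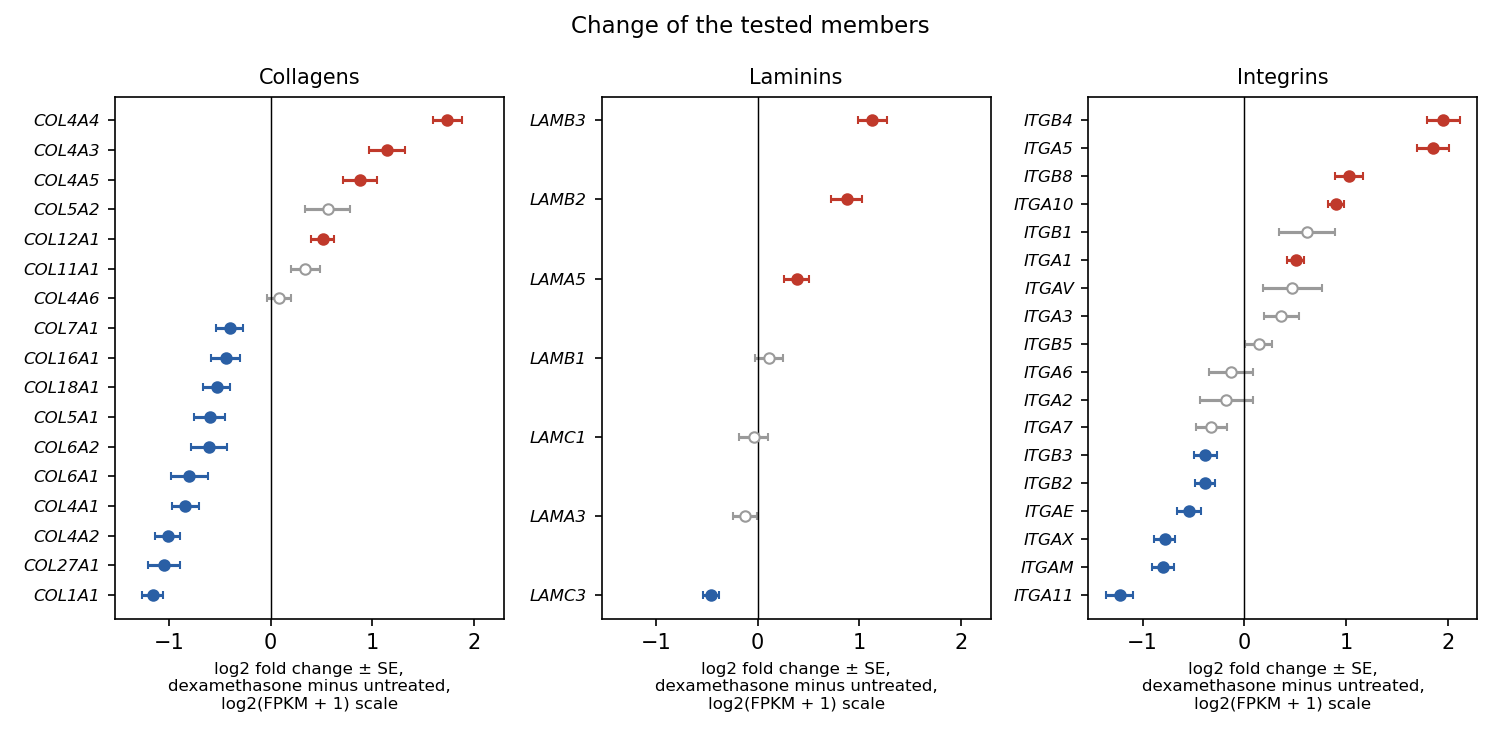
Log2 fold change (dexamethasone minus untreated, log2(FPKM + 1) scale, x axis) of 42 tested members, with bars of 1 standard error. Red points were called higher, blue points called lower and open grey points not called. ITGB4 and ITGA5 lie farthest to the right, at 1.95 and 1.85, and each panel holds points on both sides of 0.

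GC-rich genes had lower fold changes (Spearman rho of GC content and log2 fold change -0.444 over 12130 genes, -0.372 over the 43 tested members, both as descriptions across genes). Transcripts of members called higher had a median GC content of 52.0% (38.7% to 66.4%) and those called lower 60.8% (49.6% to 67.2%), beside 48.2% for all tested genes. The part of library GC bias in the calls was not tested, but the comparison was repeated with each library's trend on GC content removed, when 36.7% of all tested genes were called. The calls of COL5A1, COL7A1, COL16A1, COL18A1, LAMC3, ITGA1 and ITGB2 were lost there, and no called member changed direction. Untreated replicate 5 and dexamethasone replicate 5 stood apart from the rest of their groups on the second principal component, and without both of them 45.1% of all tested genes were called and all 30 members kept their call.

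The 6 chains of type IV collagen, which forms the network of basement membranes, were called in both directions. COL4A1 and COL4A2, the chains of the widespread form of that network, were lower after dexamethasone. COL4A3, COL4A4 and COL4A5, the chains of the form known from the glomerular and alveolar basement membranes, were higher. COL4A6 did not pass the test. The genes lie in 3 head-to-head pairs, each sharing the stretch between 2 opposite start sites, and these stretches are shown because calls of opposite direction fell in different pairs. Below are the bases that lead up to the start of the plus-strand gene of each pair, on the plus strand of GRCh38.p14 (RefSeq), in lower case with GC boxes (GGGCGG or CCGCCC) and CCAAT boxes (CCAAT or ATTGG) in capitals. The first is the whole stretch between both starts, chr13:110307158-110307283, and the others are the last 250 bases, chr2:227164374-227164623 and chrX:108439588-108439837.
COL4A1-COL4A2: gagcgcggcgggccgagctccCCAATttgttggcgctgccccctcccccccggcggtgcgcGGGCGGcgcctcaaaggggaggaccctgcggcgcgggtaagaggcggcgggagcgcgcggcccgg
COL4A4-COL4A3: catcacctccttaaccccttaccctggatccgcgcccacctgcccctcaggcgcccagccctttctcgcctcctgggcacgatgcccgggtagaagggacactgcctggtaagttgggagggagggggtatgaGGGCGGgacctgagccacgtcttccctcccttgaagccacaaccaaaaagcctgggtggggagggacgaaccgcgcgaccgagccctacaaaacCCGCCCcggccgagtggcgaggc
COL4A6-COL4A5: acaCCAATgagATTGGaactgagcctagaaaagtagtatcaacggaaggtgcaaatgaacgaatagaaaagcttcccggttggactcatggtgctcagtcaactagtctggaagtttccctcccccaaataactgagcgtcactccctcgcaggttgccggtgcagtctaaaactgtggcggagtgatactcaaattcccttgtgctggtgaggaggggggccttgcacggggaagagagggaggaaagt

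Gene coordinates given from here on are 1-based positions on GRCh38. Start sites were 126 bases apart for COL4A1 and COL4A2, 418 for COL4A4 and COL4A3, and 379 for COL4A6 and COL4A5, not counting the start bases themselves. The printed COL4A1-COL4A2 stretch held 1 GC box and 1 CCAAT box and was 80.2% G and C. The COL4A4-COL4A3 stretch held 2 GC boxes and no CCAAT box (66.4% G and C), and the COL4A6-COL4A5 stretch held 2 CCAAT boxes, 1 on each strand, and no GC box (51.2% G and C).

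COL4A1 (ENSG00000187498, chromosome 13, 110148963 to 110307233, minus strand) was at 10.4, 11.9, 9.16 and 6.53 FPKM in untreated and 4.9, 5.06, 4.72 and 4.67 FPKM in dexamethasone libraries. Its mean fell 1.96-fold (log2 fold change -0.84 with SE 0.131, limma adjusted p = 0.00127). COL4A2 (ENSG00000134871, chromosome 13, 110305812 to 110513209, plus strand) was at 37.4, 37.2, 30.6 and 30.0 FPKM in untreated and 16.2, 17.3, 15.6 and 16.6 FPKM in dexamethasone libraries, a 2.06-fold fall (log2 fold change -1.01 with SE 0.123, limma adjusted p = 0.000272). Both chains were lower in every treated library than in any untreated one, and their treated values lay within a narrow band. COL4A2 stood above COL4A1 in all 8 libraries, at 33.8 ± 4.03 against 9.5 ± 2.28 FPKM untreated (SD, n = 4 each). The annotated ends of these genes overlap on opposite strands, but no exon of one overlaps an exon of the other in GENCODE v44.

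COL4A3 (ENSG00000169031, chromosome 2, 227164565 to 227314792, plus strand) was at 0.548, 0.632, 0.577 and 0.178 FPKM in untreated and 3.25, 2.38, 2.57 and 1.19 FPKM in dexamethasone libraries. The mean rose 4.85-fold (log2 fold change 1.14 with SE 0.18, limma adjusted p = 0.00143). COL4A4 (ENSG00000081052, chromosome 2, 227002711 to 227164453, minus strand) was at 1.06, 1.23, 1.04 and 0.737 FPKM in untreated and 7.08, 6.7, 5.45 and 4.15 FPKM in dexamethasone libraries, a 5.75-fold rise (log2 fold change 1.74 with SE 0.141, limma adjusted p = 2.41e-05). COL4A4 thus had the largest rise of any tested collagen on the log2(FPKM + 1) scale. Replicate 5 was the lowest library of its group for both genes, and the groups still did not overlap.

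COL4A5 (ENSG00000188153, chromosome X, 108439844 to 108697545, plus strand) was at 7.26, 9.47, 8.01 and 5.13 FPKM in untreated and 18.9, 15.7, 14 and 10.5 FPKM in dexamethasone libraries, a 1.98-fold rise (log2 fold change 0.88 with SE 0.166, limma adjusted p = 0.00389). Its head-to-head neighbour COL4A6 (ENSG00000197565, chromosome X, 108155607 to 108439497, minus strand) was at 12.3, 12.4, 11.4 and 8.02 FPKM untreated and 12.7, 12.7, 10.7 and 11.1 FPKM treated, with overlapping groups (log2 fold change 0.09 with SE 0.119, limma adjusted p = 0.617). By call, both members of the first pair were lower, both of the second higher, and 1 of the third higher. As a share of all type IV collagen FPKM, COL4A1 and COL4A2 together held 68.6% ± 2.88 untreated and 38.3% ± 4.35 after dexamethasone (SD, n = 4 each). COL4A3, COL4A4 and COL4A5 together held 14% ± 1.94 and 40.5% ± 5.58. The summed FPKM of the 6 chains overlapped between groups, at 68.9, 72.8, 60.8 and 50.6 untreated and 63, 59.9, 53 and 48.3 treated. Within these sums the 3 rising chains were between 11.9% and 15.8% of the untreated total and between 32.9% and 46.4% of the treated one.

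**Figure D2:**
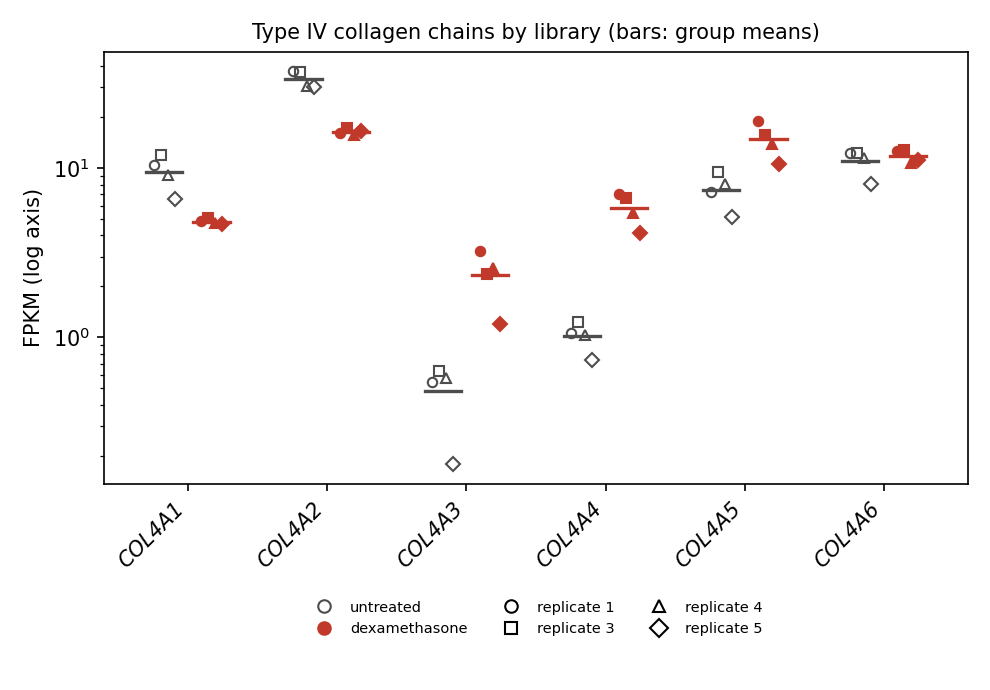
FPKM (log axis) of the 6 type IV collagen genes in each library, open grey for untreated and filled red for dexamethasone, with a symbol for each replicate number and a bar at each group mean. COL4A1 and COL4A2 lie lower in the treated libraries, COL4A3 to COL4A5 higher, and the groups of COL4A6 overlap.

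Among fibrillar collagens, which build the cable-like fibrils of connective tissue, 5 of 11 were tested, 3 fell and none rose past the threshold. Of all tested genes, 11.9% were called higher and 15.3% lower. COL1A1, the main chain of type I collagen (ENSG00000108821, chromosome 17, 50183289 to 50201632, minus strand), was low in untreated cells at 2.25, 2.01, 1.79 and 2.06 FPKM and was at 0.437, 0.421, 0.274 and 0.334 FPKM after dexamethasone. It fell 5.52-fold (log2 fold change -1.16 with SE 0.105, limma adjusted p = 4.52e-05). It passed the filter through the untreated libraries alone, so a difference was built into its selection. Its usual partner chain COL1A2 was listed at 0 in all 8 libraries. COL27A1, a fibrillar collagen of cartilage (ENSG00000196739, chromosome 9, 114155560 to 114312511, plus strand), was at 5.81, 5.58, 4.81 and 3.33 FPKM untreated and 2.14, 1.82, 2.37 and 1.17 FPKM treated, a 2.61-fold fall (log2 fold change -1.05 with SE 0.155, limma adjusted p = 0.000954).

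COL5A1 and COL5A2, partner chains of type V collagen, a regulator of fibril assembly, gave 1 call. COL5A1 (ENSG00000130635, chromosome 9, 134641774 to 134844843, plus strand) was at 23.5, 20.8, 16.3 and 18.2 FPKM untreated and 12.2, 13.9, 11.6 and 13.4 FPKM treated (log2 fold change -0.60 with SE 0.151, limma adjusted p = 0.0164). This call was lost with the GC trend removed, at -0.34 (limma adjusted p = 0.0567), and without untreated replicate 1 or dexamethasone replicate 1 or 4, when the limma adjusted p was 0.0530 to 0.0596. COL5A2 was at 20.4, 21.3, 14.1 and 8.19 FPKM untreated and 27.9, 24.6, 22.6 and 17.9 FPKM treated, with overlapping groups (log2 fold change 0.56 with SE 0.223, limma adjusted p = 0.093). The difference between the changes of these chains was not tested. COL11A1 was low, at 0.741, 0.683, 0.515 and 0.163 FPKM untreated and 1.15, 1.01, 0.577 and 0.919 FPKM treated, and its groups overlapped too (log2 fold change 0.34 with SE 0.139, limma adjusted p = 0.099).

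COL6A1 and COL6A2, neighbours on chromosome 21 and chains of the beaded-filament collagen of type VI, both fell. COL6A1 (ENSG00000142156, chromosome 21, 45981737 to 46005050, plus strand) was at 15, 16.9, 12.2 and 15.3 FPKM untreated and 6.72, 8.1, 8.01 and 10.3 FPKM treated, 1.8-fold lower (log2 fold change -0.80 with SE 0.183, limma adjusted p = 0.0105). COL6A2 (ENSG00000142173, chromosome 21, 46098097 to 46132849, plus strand) was at 8.29, 7.97, 7.32 and 9.12 FPKM untreated and 4.37, 5.37, 4.51 and 6.3 FPKM treated, 1.59-fold lower (log2 fold change -0.61 with SE 0.178, limma adjusted p = 0.0319). In both, dexamethasone replicate 5 was the highest treated library but still below every untreated one. The COL6A2 call was lost in 5 of the 8 comparisons that left out 1 library (without untreated replicate 1 or 3, or dexamethasone replicate 1, 3 or 4), where the limma adjusted p reached 0.106. COL6A3, their usual partner in this trimer, did not exceed 0.0239 FPKM in any library.

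The remaining called collagens changed less than 2-fold in mean FPKM. COL18A1 (ENSG00000182871, chromosome 21, 45405137 to 45513720, plus strand), a basement-membrane collagen whose C-terminal fragment is endostatin, was the highest collagen at 50.1, 51.8, 48.4 and 40.6 FPKM untreated and was at 29, 36, 31.3 and 36.6 FPKM treated (log2 fold change -0.53 with SE 0.131, limma adjusted p = 0.0145). Its groups did not overlap, but the call was lost with the GC trend removed, at -0.20 (limma adjusted p = 0.3), and narrowly without dexamethasone replicate 1 or 4, at limma adjusted p = 0.0581 and 0.0552. COL12A1, a collagen that sits on the surface of fibrils (ENSG00000111799, chromosome 6, 75084326 to 75206051, minus strand), was the only called collagen outside type IV that rose, from 2.39, 2.65, 2.55 and 1.69 FPKM untreated to 4.31, 4.09, 3.38 and 3.29 FPKM treated (log2 fold change 0.51 with SE 0.115, limma adjusted p = 0.00913).

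COL7A1, which forms the anchoring fibrils under the epidermis (ENSG00000114270, chromosome 3, 48564073 to 48595267, minus strand), was at 17, 15.6, 13.1 and 11.1 FPKM untreated and 10.9, 11.5, 9.43 and 10.2 FPKM treated. Its limma adjusted p was 0.0443 (log2 fold change -0.40) although the highest treated value, 11.5 FPKM, exceeded the lowest untreated one, 11.1 FPKM. COL16A1, another fibril-associated collagen (ENSG00000084636, chromosome 1, 31652247 to 31704319, minus strand), was at 3.97, 3.96, 4.07 and 3.81 FPKM untreated and 2.19, 2.44, 2.82 and 3.38 FPKM treated (log2 fold change -0.44 with SE 0.144, limma adjusted p = 0.0472). Both calls lay near the threshold. COL7A1 lost its call under 9 of 16 alternatives and COL16A1 under 11, each including the removal of the GC trend, at -0.10 (limma adjusted p = 0.708) and -0.16 (limma adjusted p = 0.232). The COL7A1 call was lost without untreated replicate 1 or 3 or any single dexamethasone library, and the COL16A1 call without any single untreated library or dexamethasone replicate 1, 3 or 4.

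Laminin chains with the highest levels were LAMA5, LAMB1 and LAMC1, which together can form a laminin common in adult basement membranes. LAMA5 (ENSG00000130702, chromosome 20, 62302941 to 62367312, minus strand) was at 71.9, 70.6, 58.6 and 53.5 FPKM untreated and 85.5, 89.8, 79.6 and 81.4 FPKM treated, 1.32-fold higher (log2 fold change 0.38 with SE 0.124, limma adjusted p = 0.0454). LAMB1 was at 65.3, 76.8, 65.9 and 43.2 FPKM untreated and 73.1, 75.4, 63.1 and 59.4 FPKM treated (log2 fold change 0.11 with SE 0.137, limma adjusted p = 0.574), and LAMC1 at 41.2, 41, 37.4 and 22.4 FPKM untreated and 34.9, 36.3, 34.2 and 31.3 FPKM treated (log2 fold change -0.04 with SE 0.141, limma adjusted p = 0.863). The LAMA5 groups were apart and those of LAMB1 and LAMC1 overlapped. The LAMA5 call was lost when any 1 library other than untreated replicate 5 was left out, at limma adjusted p = 0.0669 to 0.125.

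LAMB2, a beta chain that can take the place of LAMB1 in laminin trimers (ENSG00000172037, chromosome 3, 49121114 to 49133118, minus strand), rose from 17.3, 14.8, 12.5 and 14 FPKM untreated to 29.6, 29.5, 24.2 and 28.8 FPKM treated. The rise was 1.91-fold (log2 fold change 0.87 with SE 0.149, limma adjusted p = 0.00225), and every treated library lay above every untreated one. As a share of the FPKM of LAMB1, LAMB2 and LAMB3 together, LAMB1 was 74.3% ± 5.01 untreated and 60.8% ± 3.11 treated (SD, n = 4 each). LAMB2 was 17.8% ± 3.47 and 25.2% ± 1.46 of the same sum. LAMB1 remained the most abundant beta chain in all 8 libraries.

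LAMA3 and LAMB3 are chains of the epithelial laminin that anchors keratinocytes and airway cells. LAMB3 (ENSG00000196878, chromosome 1, 209614870 to 209652466, minus strand) rose from 7.2, 6.11, 6.04 and 6.36 FPKM untreated to 15.7, 14.7, 14 and 17.4 FPKM treated, 2.4-fold (log2 fold change 1.13 with SE 0.144, limma adjusted p = 0.000385). Every treated library lay above every untreated one. LAMA3 was at 12.2, 12.6, 10.4 and 9.23 FPKM untreated and 11.6, 10.7, 10.4 and 8.31 FPKM treated, with overlapping groups, and did not pass the test (log2 fold change -0.12 with SE 0.122, limma adjusted p = 0.477). LAMB3 was 7.85% ± 1.61 of the summed FPKM of LAMB1, LAMB2 and LAMB3 untreated and 14% ± 1.8 treated (SD, n = 4 each).

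LAMC3, a gamma chain of low level (ENSG00000050555, chromosome 9, 131009082 to 131094473, plus strand), was at 0.618, 0.901, 0.736 and 0.603 FPKM untreated and 0.161, 0.287, 0.26 and 0.297 FPKM treated (log2 fold change -0.46 with SE 0.0793, limma adjusted p = 0.00237). It passed the filter through the untreated libraries alone, so a difference was built into its selection. Removing the GC trend ended its call, at -0.17 (limma adjusted p = 0.357). LAMA1, LAMA2, LAMA4 and LAMB4 were at or below 0.323 FPKM in every library and were not tested.

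**Figure D3:**
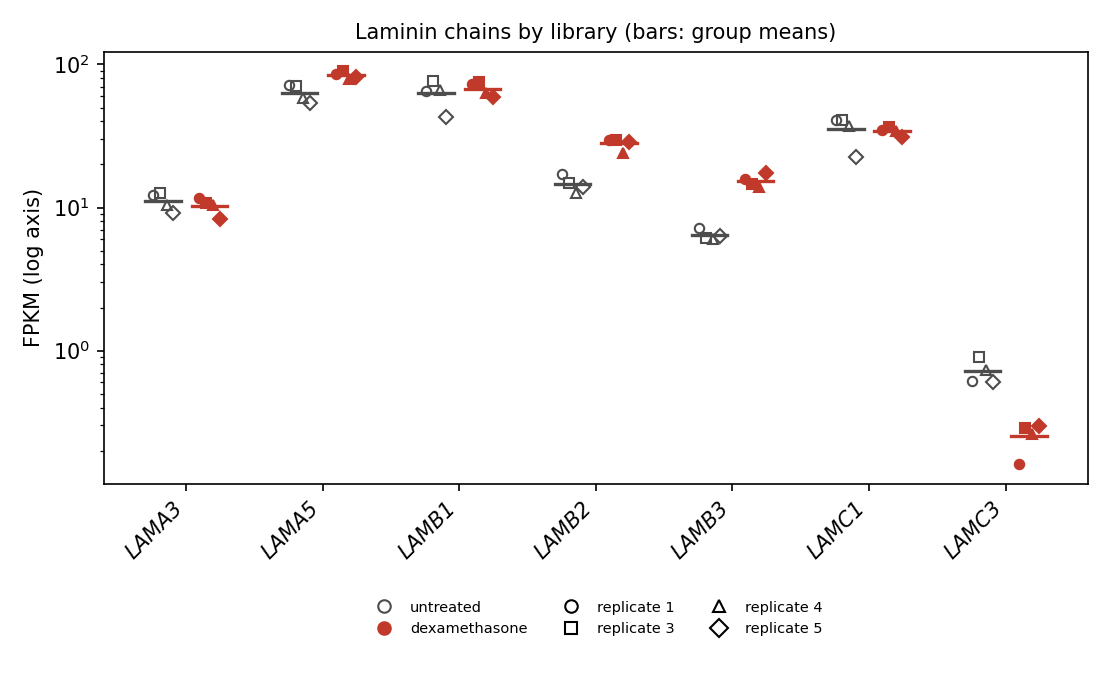
FPKM (log axis) of 7 tested laminin chains in each library, open grey for untreated and filled red for dexamethasone, with a symbol for each replicate number and a bar at each group mean. LAMB2 and LAMB3 lie higher and LAMC3 lower in the treated libraries, while LAMA3, LAMB1 and LAMC1 overlap.

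The most abundant integrin subunits were ITGB1, the beta chain shared by most collagen- and laminin-binding integrins, with ITGA3 and ITGB5. ITGB1 (ENSG00000150093, chromosome 10, 32900319 to 33005792, minus strand) was at 187, 274, 269.6 and 87.8 FPKM untreated and 336, 302, 326 and 214 FPKM treated. Untreated replicate 5 was the lowest of the 8 libraries, the groups overlapped, and ITGB1 did not pass the test (log2 fold change 0.61 with SE 0.278, limma adjusted p = 0.134). Without both libraries numbered 5 it passed, at 0.46 (limma adjusted p = 0.0255). ITGB5, a partner of ITGAV, was at 149.6, 153, 149.8 and 123 FPKM untreated and 144, 170.3, 158 and 173 FPKM treated (log2 fold change 0.14 with SE 0.132, limma adjusted p = 0.447), and passed with the GC trend removed, at 0.33 (limma adjusted p = 0.0298).

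Laminin-binding alpha subunits, 3 of 3 tested, gave no call. ITGA3 (ENSG00000005884, chromosome 17, 50055968 to 50090481, plus strand), which pairs with ITGB1, was at 159, 157, 148 and 158 FPKM untreated and 178, 231, 181 and 229 FPKM treated. Its groups did not overlap, yet it missed the threshold (log2 fold change 0.36 with SE 0.17, limma adjusted p = 0.144). It passed without both libraries numbered 5, at 0.38 (limma adjusted p = 0.0343), without untreated replicate 5 alone, at 0.46 (limma adjusted p = 0.0370), with the GC trend removed, at 0.63 (limma adjusted p = 0.00115), and with no scaling between libraries, at 0.38 (limma adjusted p = 0.0383). ITGA6 was at 17, 19.5, 19.6 and 7.67 FPKM untreated and 16.3, 15.6, 12.4 and 11.3 FPKM treated (log2 fold change -0.13 with SE 0.214, limma adjusted p = 0.665). ITGA7, the muscle laminin receptor, was at 1.53 ± 0.288 and 1.04 ± 0.225 FPKM (SD, n = 4 each, log2 fold change -0.32 with SE 0.153, limma adjusted p = 0.146). The ITGA6 and ITGA7 groups overlapped, and ITGA7 passed without both libraries numbered 5, at -0.29 (limma adjusted p = 0.0333).

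ITGB4, the beta chain that pairs with ITGA6 in hemidesmosomes, the junctions that attach epithelial cells to laminin, had the largest rise among the tested members on the log2(FPKM + 1) scale. ITGB4 (ENSG00000132470, chromosome 17, 75721328 to 75757818, plus strand) was at 40.3, 43.2, 37.8 and 41.7 FPKM untreated and 146, 176, 148 and 187 FPKM treated. The mean rose 4.02-fold (log2 fold change 1.95 with SE 0.162, limma adjusted p = 2.99e-05), the spread within each group was small beside the gap, and the call held under all 16 alternatives. ITGB4 exceeded its partner ITGA6 in both groups, at a mean of 40.8 against 15.9 FPKM untreated and 164 against 13.9 FPKM treated. As a share of ITGB1, ITGB4 and ITGB5 together, ITGB4 was 11.2% ± 3.7 untreated and 26.6% ± 4.34 treated (SD, n = 4 each).

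ITGA5, which pairs with ITGB1 as the classical fibronectin receptor (ENSG00000161638, chromosome 12, 54395261 to 54419460, minus strand), was at 13.9, 12.9, 12.2 and 13.2 FPKM untreated and 43.7, 54, 47.3 and 58.4 FPKM treated. It rose 3.89-fold (log2 fold change 1.85 with SE 0.158, limma adjusted p = 3.45e-05). ITGAV, the alpha chain of the vitronectin receptors, was at 17.8, 24.6, 22.4 and 6.8 FPKM untreated and 28.8, 22.5, 25.8 and 17 FPKM treated and did not pass the test (log2 fold change 0.47 with SE 0.287, limma adjusted p = 0.248). Untreated replicate 5 was again the lowest ITGAV library. ITGB8, a partner of ITGAV known for activating latent TGF-beta (ENSG00000105855, chromosome 7, 20330702 to 20415754, plus strand), rose from 0.551, 0.647, 0.583 and 0.245 FPKM untreated to 2.78, 2.13, 2.13 and 1.37 FPKM treated, 4.15-fold (log2 fold change 1.03 with SE 0.134, limma adjusted p = 0.000463). ITGB3, another partner of ITGAV (ENSG00000259207, chromosome 17, 47253846 to 47311816, plus strand), was low and was at 1.23, 1.07, 1.19 and 1.37 FPKM untreated and 0.534, 0.742, 0.739 and 0.844 FPKM treated (log2 fold change -0.38 with SE 0.114, limma adjusted p = 0.0338). That call was lost in 5 of the 8 comparisons that left out 1 library (without untreated replicate 1 or 4, or dexamethasone replicate 1, 3 or 4), where the limma adjusted p reached 0.114. ITGB6, the epithelial partner of ITGAV, was at or below 0.430 FPKM and was not tested.

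All 4 collagen-binding alpha subunits were tested, and 2 rose, 1 fell and 1 was not called. Among all tested genes, 11.9% were called higher and 15.3% lower. The 2 that rose, ITGA10 and ITGA1, passed the filter through the dexamethasone libraries alone, so a difference was built into their selection. ITGA10, first known from cartilage (ENSG00000143127, chromosome 1, 145891208 to 145910189, minus strand), was at 0.194, 0.229, 0.184 and 0.258 FPKM untreated and 1.26, 1.33, 1.25 and 1.32 FPKM treated, 5.95-fold higher (log2 fold change 0.90 with SE 0.0779, limma adjusted p = 3.35e-05). ITGA11, a receptor for fibrillar collagen typical of fibroblasts (ENSG00000137809, chromosome 15, 68296533 to 68432162, minus strand), was at 3.32, 2.96, 2.3 and 1.98 FPKM untreated and 0.787, 0.467, 0.336 and 0.642 FPKM treated, 4.73-fold lower (log2 fold change -1.23 with SE 0.133, limma adjusted p = 0.000158). It had the largest fall of any tested member on the log2(FPKM + 1) scale. The fibroblast marker THY1 was lower in the same libraries, as given above, and its part in the falls of ITGA11 and COL1A1 was not tested.

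ITGA1 (ENSG00000213949, chromosome 5, 52787896 to 52959210, plus strand) was at 0.295, 0.359, 0.265 and 0.0838 FPKM untreated and 0.871, 0.756, 0.858 and 0.584 FPKM treated (log2 fold change 0.50 with SE 0.0875, limma adjusted p = 0.00238). Its call was lost with the GC trend removed, at 0.22 (limma adjusted p = 0.179), and its exons overlap those of PELO on the same strand, so its level is uncertain. ITGA2, the neighbouring gene and the highest of the collagen-binding alpha subunits by level, was at 8.6, 11.6, 8.02 and 3.2 FPKM untreated and 7.91, 7.36, 5.98 and 4.59 FPKM treated, with overlapping groups (log2 fold change -0.18 with SE 0.261, limma adjusted p = 0.637). In untreated cells ITGA2 stood at 7.86 ± 3.49 FPKM, above ITGA11 at 2.64 ± 0.611, ITGA1 at 0.251 ± 0.118 and ITGA10 at 0.216 ± 0.0339 FPKM (SD, n = 4 each). ITGA1 and ITGA10 did not differ beyond their spread in that order. After dexamethasone the order was ITGA2, ITGA10, ITGA1 and ITGA11, at 6.46 ± 1.49, 1.29 ± 0.0404, 0.767 ± 0.132 and 0.558 ± 0.198 FPKM (SD, n = 4 each), and the values of ITGA1 and ITGA11 overlapped.

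**Figure D4:**
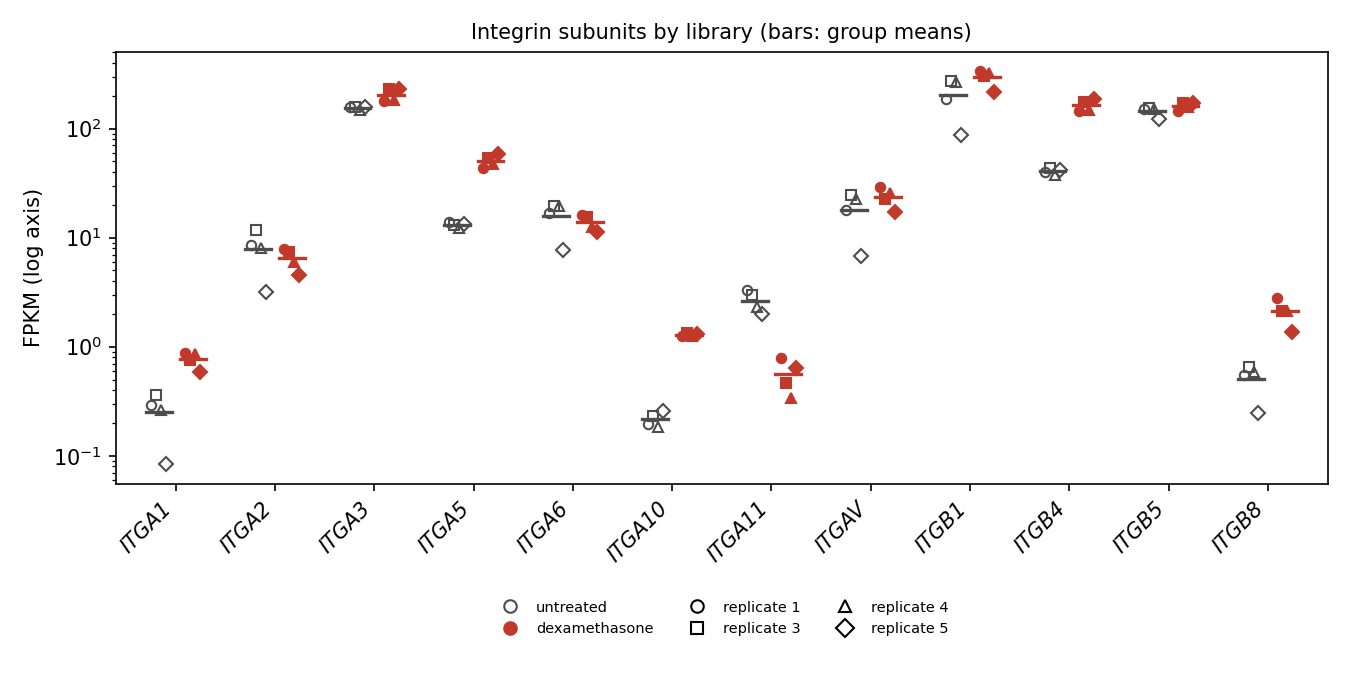
FPKM (log axis) of 12 integrin subunits in each library, open grey for untreated and filled red for dexamethasone, with a symbol for each replicate number and a bar at each group mean. ITGA5, ITGB4, ITGB8 and ITGA10 lie higher and ITGA11 lower in the treated libraries, and untreated replicate 5 is the lowest library for ITGA1, ITGA2, ITGA6, ITGAV, ITGB1 and ITGB8.

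Of 5 alpha subunits best known from leukocytes, 3 were tested, and all 3 fell. Among all tested genes, 15.3% were called lower. ITGAX, 1 of the 3, passed the filter through the untreated libraries alone, so a difference was built into its selection. ITGAM (ENSG00000169896, chromosome 16, 31259967 to 31332892, plus strand) was at 2.03, 2.3, 2.09 and 1.76 FPKM untreated and 1.09, 0.775, 0.536 and 0.662 FPKM treated (log2 fold change -0.80 with SE 0.109, limma adjusted p = 0.000525), and ITGAX, its neighbour on chromosome 16 (ENSG00000140678, chromosome 16, 31355134 to 31382997, plus strand), at 1.04, 0.961, 1.3 and 1.16 FPKM untreated and 0.112, 0.214, 0.278 and 0.346 FPKM treated (log2 fold change -0.78 with SE 0.103, limma adjusted p = 0.000476). Their common beta chain ITGB2 (ENSG00000160255, chromosome 21, 44885953 to 44931989, minus strand) was at 0.873, 0.996, 1.13 and 0.749 FPKM untreated and 0.308, 0.508, 0.471 and 0.647 FPKM treated (log2 fold change -0.39 with SE 0.096, limma adjusted p = 0.0145). Removing the GC trend ended the ITGB2 call, at -0.14 (limma adjusted p = 0.455). The pan-leukocyte marker PTPRC and the T-cell marker CD3E were listed at 0 in all 8 libraries. The monocyte marker CD14, also lower after dexamethasone, was 2.01 to 3.14 FPKM untreated and 1.19 to 1.56 FPKM treated, and the list of these 3 markers with ITGB2 summed to 2.89 to 4.27 and 1.5 to 2.2 FPKM. Their part in the falls of ITGAM and ITGAX was not tested. ITGAE, known for binding E-cadherin (ENSG00000083457, chromosome 17, 3704792 to 3801243, minus strand), was the highest of the leukocyte subunits at 18.6, 22.5, 21.6 and 17.2 FPKM untreated and 12.6, 15, 13 and 13.6 FPKM treated, 1.48-fold lower (log2 fold change -0.54 with SE 0.116, limma adjusted p = 0.00688). Its usual beta partner ITGB7 was at or below 0.546 FPKM and was not tested. ITGAE exons overlap HASPIN on the opposite strand, which bears on its level only if the counting ignored the strand. The same holds for LAMA5 (ADRM1), LAMB1 (DLD), COL18A1 (SLC19A1), ITGA7 (BLOC1S1 and METTL7B), ITGB7 (ZNF740) and other members. Exons of ITGB3 overlap those of an unnamed gene on the same strand, so its level is uncertain.

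The 39 members that were not tested included 9 listed at 0 in all 8 libraries, and no value among them exceeded 0.609 FPKM. Of the 30 above 0 in at least 1 library, 7 had groups that did not overlap, 5 lower and 2 higher after dexamethasone, against 14.1% of all untested genes above 0 somewhere. ITGA2B, the alpha chain of the platelet fibrinogen receptor, was at 0.609, 0.472, 0.42 and 0.461 FPKM untreated and 0.0247, 0.0683, 0.144 and 0.243 FPKM treated. COL21A1, a fibril-associated collagen, was at 0.536, 0.609, 0.405 and 0.187 FPKM untreated and 0.116, 0.042, 0.0478 and 0.129 FPKM treated. COL28A1 was at 0.0581, 0.0304, 0.0816 and 0.119 FPKM untreated and 0.497, 0.327, 0.313 and 0.155 FPKM treated, higher in each treated library. The other 4 were ITGAL, COL13A1 and COL22A1, lower in treated libraries, and COL5A3, higher, with a highest value of 0.382 FPKM, in ITGAL. With no filter on low values, 3627 genes were called, and these 7 and COL17A1 had limma adjusted p-values of 0.000883 to 0.0499. COL17A1 had a log2 fold change of -0.18 there, with overlapping groups. The 7 were picked for groups that do not overlap and COL17A1 for its call, so these p-values are no separate support. ITGBL1, which is no integrin subunit, was at 0.15, 0.246, 0.218 and 0.0739 FPKM untreated and 0.279, 0.136, 0.0546 and 0.318 FPKM treated.

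Of the 82 members, 58 had at least 1 RefSeq promoter window (GRCh38.p14), with 77 windows in all, and 22 of these genes were called. The 250 bases before each start were searched for the palindromic glucocorticoid response element, AGAACA and TGTTCT set 3 bases apart, which reads the same on both strands. No member window matched all 12 letters or missed 1, compared with 0.137% of all 35116 windows at up to 1 mismatch. With up to 2 mismatches 2 of 77 windows matched (2.60%), compared with 1.19% of all windows. These were ITGA10, which rose, and ITGA6, which was not called. They are shown because no other member matched, on the strand of the gene, with the letters that match the element in capitals and the others in lower case. The first lies at chr1:145910257-145910271 (minus strand), with 206 bases between it and the start of ITGA10, and the second at chr2:172427255-172427269 (plus strand), with 66 bases between it and the start of ITGA6.
ITGA10: AaAAaAataTGTTCT
ITGA6: AGAACAggcTGcTCa

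A GC box was found in 54.5% of the 77 member windows, compared with 42.6% of all windows, and a CCAAT box on either strand in 22.1%, compared with 32.0%. These matches describe letters in a window and no binding was measured.

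Genes that process collagen were examined as a list of 31, of which 24 were tested, with 5 called higher and 4 lower. That was 37.5% called, against 27.2% of all tested genes, with a median log2 fold change of 0.07. LOX, a lysyl oxidase that cross-links collagen (ENSG00000113083, chromosome 5, 122063195 to 122078360), was at 0, 0.00779, 0.037 and 0 FPKM untreated and 1.31, 1.24, 1.13 and 0.983 FPKM treated (log2 fold change 1.09 with SE 0.071, limma adjusted p = 6.88e-06). It passed the filter through the treated libraries alone, so a difference was built into its selection. Its relative LOXL2 was 66.7 ± 4.72 FPKM untreated and 27.9 ± 1.62 FPKM treated (SD, n = 4 each, log2 fold change -1.25 with SE 0.128, limma adjusted p = 9.96e-05). P3H2, a prolyl 3-hydroxylase that acts on type IV collagen, was at 8.92, 8.84, 7.59 and 5.7 FPKM untreated and 19.5, 22, 22.3 and 18.8 FPKM treated (log2 fold change 1.30 with SE 0.12, limma adjusted p = 4.93e-05). The list thus held enzymes of 1 family called in opposite directions. LOXL2, BMP1 and PCOLCE were chosen after their values were seen. BMP1, a procollagen C-proteinase, rose from 20.4 ± 2.21 to 36.8 ± 2.32 FPKM (SD, n = 4 each, limma adjusted p = 0.00412), and its enhancer PCOLCE fell from 3.1 ± 0.497 to 1.38 ± 0.346 FPKM (limma adjusted p = 0.00798).

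Of 30 other basement-membrane proteins and integrin ligands, 22 were tested, with 6 higher and 5 lower. That was 50.0% called, against 27.2% of all tested genes, with a median of 0.06. FN1, MFGE8, NID1, NID2 and HSPG2 were chosen after their values were seen. FN1, or fibronectin, the ligand of ITGA5-ITGB1, rose from 65.3 ± 18.1 to 169.8 ± 33.1 FPKM (SD, n = 4 each, log2 fold change 1.37 with SE 0.186, limma adjusted p = 0.000575). MFGE8, a ligand of ITGAV integrins, was higher too, at 51.5 ± 5.78 and 174 ± 16.1 FPKM (log2 fold change 1.72 with SE 0.168, limma adjusted p = 8.33e-05). Called genes of the list that are not detailed here were THBS1, CCN2 and FBLN5, higher, and TGFBI, CCN1 and SMOC1, lower. SPP1 and VTN did not pass the test. TNC, or tenascin C, was at 1.62, 2.15, 1.73 and 1.74 FPKM untreated and 0.123, 0.135, 0.172 and 0.195 FPKM treated (log2 fold change -1.28 with SE 0.0917, limma adjusted p = 1.15e-05). It passed the filter through the untreated libraries alone, so here too a difference was built in. SPARC, a collagen-binding matricellular protein, was at 4.09, 4.27, 3.73 and 4.32 FPKM untreated and 0.767, 0.814, 0.757 and 1.01 FPKM treated (log2 fold change -1.49 with SE 0.129, limma adjusted p = 3.47e-05). The groups of TNC and SPARC were wide apart. The cross-linking proteins NID1 and HSPG2, which join laminin to type IV collagen, did not pass the test, at 2.26 ± 0.432 and 2.13 ± 0.299 FPKM for NID1 (limma adjusted p = 0.715) and 28.6 ± 5.17 and 29 ± 4.26 FPKM for HSPG2 (SD, n = 4 each, limma adjusted p = 0.996). The other nidogen, NID2, rose from 1.39 ± 0.613 to 2.49 ± 0.257 FPKM (SD, n = 4 each, log2 fold change 0.58 with SE 0.166, limma adjusted p = 0.0277).

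Of 37 genes of the integrin adhesion machinery, 35 were tested, with 11 higher and 3 lower. That was 40.0% called, against 27.2% of all tested genes, with a median of 0.24. The list held surface proteins too (CD151, DDR1, DDR2 and BCAM), of which BCAM alone was called, as lower. PTK2B, a focal-adhesion-type kinase, was at 5.27, 5.02, 4.11 and 5.89 FPKM untreated and 19.9, 22.3, 21.8 and 26.7 FPKM treated (log2 fold change 1.94 with SE 0.183, limma adjusted p = 6.68e-05). TNS1, a tensin that links beta integrin tails to actin, was at 2.24, 1.94, 1.76 and 1.43 FPKM untreated and 5.83, 5.52, 4.46 and 4.47 FPKM treated (log2 fold change 1.08 with SE 0.123, limma adjusted p = 0.00019). Both genes were higher in every treated library than in any untreated one. TNS4, SRC, PLEC and CD151 were chosen after their values were seen. TNS4 was higher as well, at 55.9 ± 4.6 and 157 ± 11.6 FPKM (SD, n = 4 each, log2 fold change 1.45 with SE 0.167, limma adjusted p = 0.000223), and the kinase SRC lower, at 87.9 ± 6.46 and 40.2 ± 3.51 FPKM (log2 fold change -1.13 with SE 0.163, limma adjusted p = 0.000819). PLEC and CD151, partners of ITGA6-ITGB4 in hemidesmosomes, did not pass the test, at 172 ± 19.3 and 212 ± 12.2 FPKM for PLEC (limma adjusted p = 0.163) and 114 ± 8.69 and 145 ± 22.6 FPKM for CD151 (SD, n = 4 each, limma adjusted p = 0.253). The number called in this list was 8 or 9 without untreated replicate 1, 3 or 4, or dexamethasone replicate 1, 3 or 4. In those comparisons 2362 to 2934 of all tested genes were called, against 3310 with all 8 libraries. The fall in this list thus came with a fall over all genes.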

How the data were processed

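RNA from 8 wells of A549 cells was sequenced as paired-end reads after removal of ribosomal RNA, per the labels. Per the submitters' processing notes, the tools were FastQC 0.11.9, cutadapt 3.4, STAR 2.7.9a, featureCounts from Subread 2.0.3 and DESeq2 1.32.0, with GRCh38. The values deposited by the authors are named as counts but are not whole numbers, differ in sum between libraries and carry no named unit. They were read as FPKM. How they were scaled by length, which annotation was used and whether counting used strand are not given in the sources used here. Low values lay within 0.1 of a whole fragment in 37.8% to 44.3% of cases, so whole counts could not be restored and a model for counts was not fitted.

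Genes with at least 0.5 FPKM in at least 4 libraries were kept. Their values were scaled by trimmed means of log ratios (trims 0.3 and 0.05, factors 0.829 to 1.07), transformed to log2(FPKM + 1), and fitted with limma 3.58.1 (R 4.3.3, trend and robust eBayes). The fit had the group as its only term, and p-values were adjusted by Benjamini-Hochberg over 12161 genes. Printed levels are FPKM as deposited, without this scaling. The fit was also run on simulated data with independent noise for each gene and library. Those data held no GC trend and no shift shared across a library, so that run does not bear on either. GENCODE v44 gave exon overlaps and GC content, and RefSeq (GRCh38.p14) gave promoter windows; gene coordinates were checked against GENCODE v44.

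The members and lists were chosen with earlier results of these data known. Named by rule were all called members, the 4 members of each family with the highest mean FPKM, the 2 genes of each related list with the smallest p, and treatment checks (FKBP5, TSC22D3, PER1). Other members were added to complete their groups, and the values of 1 tested laminin gene are not reported here. The alternatives were another pseudocount, no filter, other scalings, a replicate block, leaving out libraries, a GC correction and limma without trend and robust.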

Additional observations from a re-analysis of the deposited data

Results flagged for a closer look

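A single library stood apart from the other 3 of its group, by Dixon's criterion at the 95% level, in 3 of 90 groups of values checked, where chance alone flags about 1 in 20 groups (4.5 of 90). LAMB2 in dexamethasone replicate 4 was 24.2 FPKM, below the other treated libraries at 28.8 to 29.6 FPKM. ITGA3 in untreated replicate 4 was 148 FPKM, below the other untreated libraries at 157 to 159 FPKM. ITGB5 in untreated replicate 5 was 123 FPKM, below the other untreated libraries at 149.6 to 153 FPKM.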

How the results depend on the processing

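Of the 30 called members, 20 kept their call under all 16 alternatives. The share of all called genes that did so was not computed, so the 20 cannot be set against it. COL1A1, ITGAX and ITGA10, among the 20, passed the filter through 1 group alone, so a difference was built into their selection. With the replicate block, 5776 of all 12161 tested genes and 16 of the 24 tested genes of the collagen-processing list were called. The replicate numbers were not taken as pairing the wells. Same-numbered libraries correlated at 0.291, 0.0653, 0.314 and 0.713 in their deviations from the group means. Not every library correlated best with its own number. ITGB1, ITGA3, ITGA7, COL5A2 and COL11A1 passed the threshold only with the block or some other alternatives, and ITGB5 only with the GC trend removed. Without both libraries numbered 5, 5513 genes (45.1% of those tested) and 14 collagen-processing genes were called and the integrin median was -0.0946. With the GC trend removed, 6 collagens and 1 laminin were called lower, the collagen median was -0.16, the median of the basement-membrane list was 0.27, and LAMC1 turned to 0.0152. The collagen median was -0.54 with a pseudocount of 0.1 and -0.0059 with no filter, when members near 0 entered it. The cause of the other shifts was not tested. Leaving out 1 library gave 2362 to 3905 called genes, 9 to 13 called collagens (5 to 9 lower, median -0.54 to -0.39), an integrin median of -0.0292 to 0.0723, a laminin median of -0.04 to 0.10, 8 to 17 called adhesion genes, 8 to 12 called collagen-processing genes (median -0.0202 to 0.243), a basement-membrane median of -0.0042 to 0.12, and LAMC1 at -0.15 to 0.0285. Members below 0.5 FPKM were kept out by the filter, and depth limits levels near the worth of 1 fragment.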
